A study of Mus musculus with 5 samples.

Results

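The 10 genes described here encode the contractile apparatus of smooth muscle as it is found in mammary myoepithelium: Acta2, Tagln, Myh11, Cnn1, Mylk, Myl9, Tpm2, Actg2, Oxtr and Csrp1. They were chosen by gene symbol for that function, with earlier results of these data known. All 10 were found among the 38918 features of the normalised table. RNA was sequenced from mammary tumours of SV40 transgenic mice on the FVB strain at 20 weeks of age. The maternal BSp group (n = 3 libraries) had mothers whose feed held 26% BSp, which stands for broccoli sprouts, between conception and weaning, and the control group (n = 2 libraries) had mothers on control feed. All mice of both groups carried the transgene, and no offspring received a treatment of its own. No source used here gives the promoter that drives the transgene, or says whether each library came from a separate animal, and p-values therefore reflect library-to-library spread, which may be technical.

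Myoepithelial cells form the outer, contractile layer of mammary ducts and alveoli and squeeze milk from the gland. Oxytocin binds its receptor, encoded by Oxtr, calcium enters the cytoplasm, and the calmodulin-dependent kinase encoded by Mylk phosphorylates the light chain encoded by Myl9, so that the smooth muscle myosin of Myh11 pulls on actin filaments made of the products of Acta2 and Actg2. Tropomyosin (Tpm2), calponin (Cnn1) and transgelin (Tagln) bind those filaments, and Csrp1 encodes a LIM domain protein of smooth muscle. Many of these genes are switched on by serum response factor (SRF) at a DNA element called the CArG box. The same genes are used by vascular smooth muscle, pericytes and activated fibroblasts. In bulk tissue, fewer cells of a type and less RNA per cell cannot be told apart.

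The promoters of Acta2, Myl9 and Cnn1 are printed to show where that element does and does not occur among members described below. Each runs from 250 bases before to 50 bases after the annotated start, 5′ to 3′ on the gene's strand, from RefSeq on GRCm38.p6. Capitals mark CArG boxes with up to 1 mismatch and the sequence CATTCC, the MCAT element bound by TEAD factors, on either strand. The windows are chr19:34255324-34255623 on the minus strand for Acta2, chr2:156775214-156775513 on the plus strand for Myl9 and chr9:22099003-22099302 on the plus strand for Cnn1.
Acta2: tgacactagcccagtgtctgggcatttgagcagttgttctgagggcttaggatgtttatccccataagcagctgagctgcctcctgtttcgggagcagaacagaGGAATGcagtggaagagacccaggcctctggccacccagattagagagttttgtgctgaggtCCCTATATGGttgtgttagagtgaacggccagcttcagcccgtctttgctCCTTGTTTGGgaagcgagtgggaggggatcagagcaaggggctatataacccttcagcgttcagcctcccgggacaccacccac
Myl9: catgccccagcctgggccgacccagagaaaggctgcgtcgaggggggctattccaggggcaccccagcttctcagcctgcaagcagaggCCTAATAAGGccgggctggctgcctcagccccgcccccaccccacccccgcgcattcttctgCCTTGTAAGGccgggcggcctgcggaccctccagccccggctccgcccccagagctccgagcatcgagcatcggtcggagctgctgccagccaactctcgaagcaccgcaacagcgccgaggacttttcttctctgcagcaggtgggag
Cnn1: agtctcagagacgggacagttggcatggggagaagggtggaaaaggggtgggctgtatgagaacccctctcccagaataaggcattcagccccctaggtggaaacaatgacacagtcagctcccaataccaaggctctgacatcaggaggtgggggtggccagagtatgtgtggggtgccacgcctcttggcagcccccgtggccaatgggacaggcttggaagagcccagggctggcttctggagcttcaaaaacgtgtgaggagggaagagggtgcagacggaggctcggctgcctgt

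The Acta2 window held 2 CArG boxes with up to 1 mismatch, beginning 84 and 34 bases before the start, and 1 MCAT element beginning 146 bases before it. Myl9 held 2 CArG boxes, beginning 161 and 99 bases before the start, of which 1 matched exactly, and Cnn1 held neither element in this window. Of the 8 windows available for 7 members (Acta2, Cnn1, Csrp1, Myl9, Mylk, Oxtr and Tpm2), 2 held a CArG box with up to 1 mismatch, and 21.1% of all 32851 promoter windows of this length did. An exact CArG box was in 1 of the 8 windows and in 1.63% of all windows. CATTCC on either strand was in 2 of the 8 windows and in 14.7% of all windows. These matches describe the sequence and do not show binding.

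Values are reads per gene that the authors scaled to 1 common total. The depth behind them was uneven, at 8459029, 61663199 and 13796272 reads in maternal BSp replicates 1, 2 and 3, and 1106813 and 3909583 reads in control replicates 1 and 2, which were the shallowest of the 5. A count of 0 allows up to 3 reads, a value of 0.0538 in maternal BSp replicate 2 but of 3 in control replicate 1. In maternal BSp replicate 1 and control replicate 1 the tumour RNA carried salivary gland transcripts, at 1032 and 92 for Smr3a, 604 and 278 for Bpifa2 and 315 and 210 for Dcpp1, and in the other 3 libraries these genes were at most 0.882. Salivary glands contain myoepithelial cells of their own, and the part of this tissue in the values below was not tested.

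The members differed among themselves. Acta2 and Cnn1 were lower in each maternal BSp library than in either control, Tpm2 and Tagln averaged lower in maternal BSp with libraries that overlapped, Mylk and Myl9 had groups that overlapped, and Actg2 and Csrp1 were highest in maternal BSp replicate 2. Among genes with a mean of at least 10, 9.21% were lower in each maternal BSp library, as Acta2 was, and Cnn1 was under that mean. Myh11, the most specific marker of mature smooth muscle, and Oxtr gave at most 36 reads in any library. Oxtr went the other way from Acta2 and Cnn1, with 25, 2 and 7 reads in maternal BSp and 0 in both controls. No member passed the test. Limma on log2(value + 1) gave adjusted p between 0.444 and 0.971 for the 7 members with a mean of at least 10, and over all 9870 genes tested 0 (0%) passed.

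**Figure D1:**
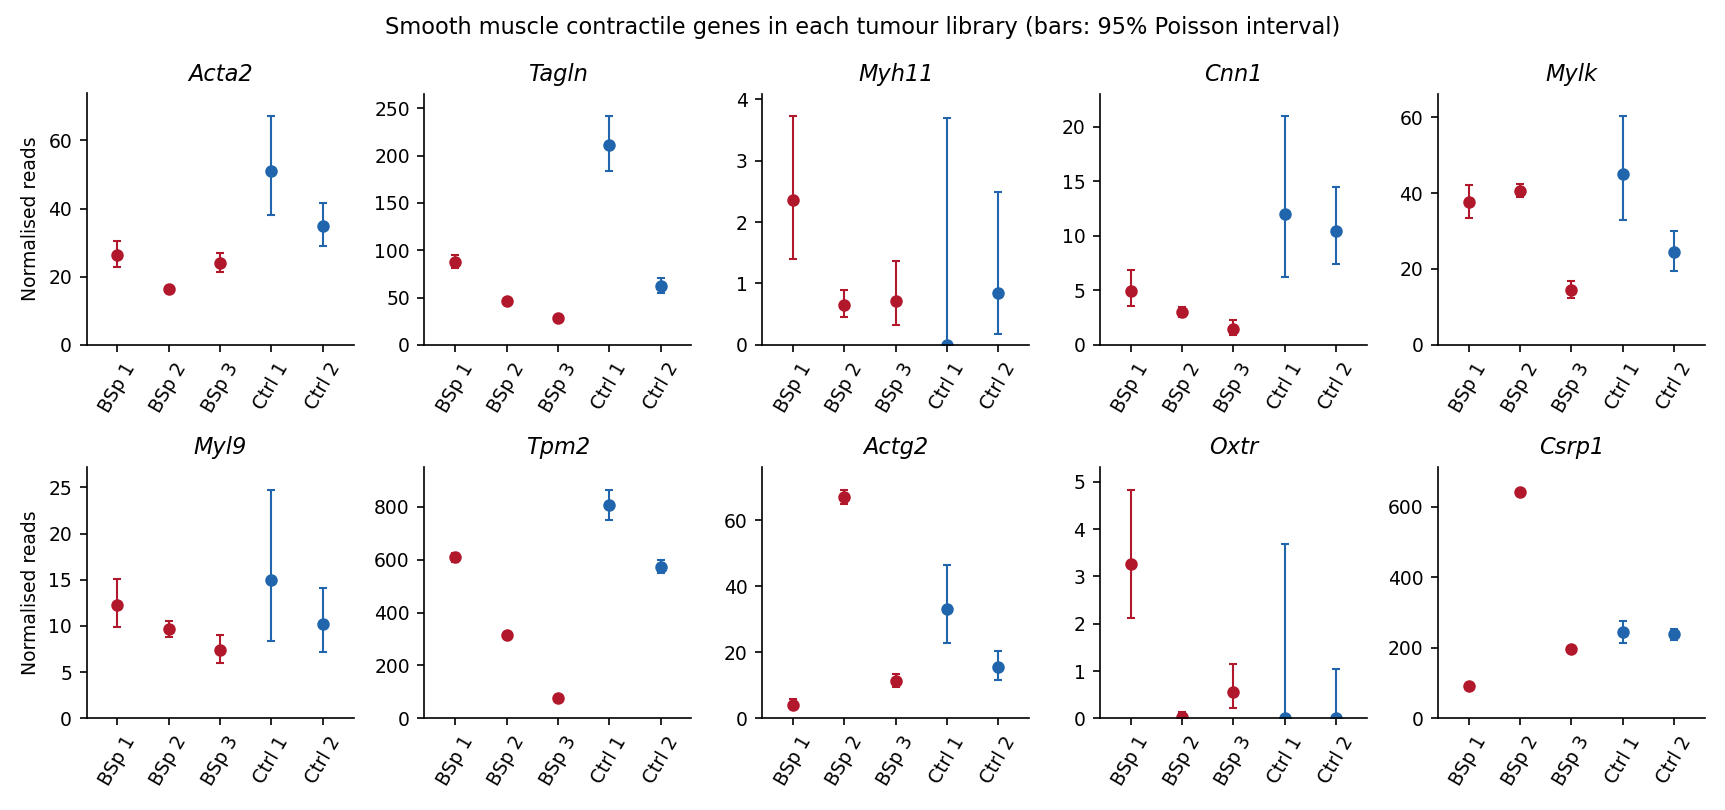
Normalised reads of each member in the 3 maternal BSp libraries (red) and the 2 control libraries (blue), on a linear axis from 0 for each gene, with bars for the exact two-sided 95% Poisson interval of the read count, which at 0 reads extends to 3.69 reads and so past the 3 reads used as the limit in the text. Acta2 and Cnn1 sit lower in all 3 maternal BSp libraries than in either control, and Actg2 and Csrp1 stand highest in maternal BSp replicate 2.

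Levels between genes were compared per kilobase of annotated exon. As a mean over the 5 libraries Tpm2 stood first, at 164 normalised reads per kilobase, and Csrp1 next, at 144, but in maternal BSp replicates 2 and 3 Csrp1 was the higher of the pair. Tagln followed at 43.8, Actg2 at 16.8, Acta2 at 13.9 and Myl9 at 9.38. Mylk stood at 2.88, Cnn1 at 2.33, Oxtr at 0.162 and Myh11 at 0.120. Neighbours in this order had ranges over the libraries that overlapped, apart from Myl9 (6.35 to 12.9 per kilobase) and Mylk (1.28 to 3.995 per kilobase).

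Oxtr encodes the oxytocin receptor, the trigger of milk ejection (chromosome 6, 112473683 to 112489943, minus strand, GRCm38, as for all positions here). It gave 25, 2 and 7 reads in maternal BSp replicates 1, 2 and 3, which are values of 3.27, 0.0359 and 0.562, and 0 reads in both controls. The limit that a count of 0 allows is a value of 3 in control replicate 1 and 0.849 in control replicate 2, so at this depth the controls could not be told apart from maternal BSp replicates 2 and 3. The replicate with the most Oxtr reads was the maternal BSp library that carried salivary gland transcripts.

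Mylk encodes myosin light chain kinase (chromosome 16, 34745210 to 35002420, plus strand). It measured 37.6, 40.6 and 14.4 in maternal BSp and 45.0 and 24.3 in the controls, so the groups overlapped. The log2 fold change was -0.23 (SE 0.53, 95% interval -1.45 to 0.996, limma adjusted p 0.884). The locus also makes telokin, a short protein, which a value per gene does not separate from the kinase.

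Myl9, the regulatory light chain that the kinase phosphorylates (chromosome 2, 156775420 to 156781658, plus strand), measured 12.3, 9.64 and 7.38 in maternal BSp and 15.0 and 10.2 in the controls. Its log2 fold change was -0.34 (SE 0.56, limma adjusted p 0.832), with an interval of -1.63 to 0.95 that spans 0. The control values rest on 15 and 36 reads, and the interval for control replicate 1, 8.40 to 24.7, covers all 3 maternal BSp values but that of replicate 3.

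Myh11, the heavy chain of smooth muscle myosin (chromosome 16, 14194535 to 14291372, minus strand), gave 18, 36 and 9 reads in maternal BSp, or values of 2.36, 0.646 and 0.722. In the controls it gave 0 and 3 reads, or 0 and 0.849. The groups overlapped, and the count of 0 in control replicate 1 allows a value of up to 3, above that of every other library. Against the non-muscle heavy chains Myh9, Myh10 and Myh14, and per length, Myh11 made up 0.498%, 0.109% and 0.230% of the transcripts of these 4 genes in maternal BSp and 0% and 0.174% in the controls. In control replicate 1, 3 reads would have made a share of 0.493%.

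With Oxtr and Myh11 near the limit of detection, and the remaining members shared with other cells, the 10 are called contractile genes here with no cell type attached. Myocd, which encodes the SRF partner myocardin that is restricted to heart and smooth muscle, was at 0.131, 0.0538 and 0 in maternal BSp and at 0 in both controls.

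Acta2, the smooth muscle alpha actin (chromosome 19, 34241090 to 34255590, minus strand), measured 26.4, 16.3 and 24.0 in maternal BSp and 51.0 and 34.8 in the controls. Each maternal BSp library was lower than either control, with means of 22.2 ± 5.31 in maternal BSp (SD, n = 3) and 42.9 ± 11.4 in control (SD, n = 2). The log2 fold change was -0.92 (SE 0.40, 95% interval -1.84 to -0.0030), with an unadjusted p of 0.0494 and an adjusted p of 0.444 in limma. All maternal BSp libraries were lower than both controls for 9.21% of the 9870 genes tested, and for Acta2 alone among the 7 tested members. Non-overlap in either direction held for 33.0% of genes.

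Actg2, the gamma actin of enteric smooth muscle (chromosome 6, 83512905 to 83536265, minus strand), did not follow Acta2. It measured 4.19, 67.1 and 11.3 in maternal BSp and 33.0 and 15.6 in the controls. Both extremes were maternal BSp libraries, 16.0-fold apart. The group mean was higher in maternal BSp (27.5 ± 34.4 against 24.3 ± 12.3 in control, SD), while the log2 fold change was -0.54 (SE 0.97, limma adjusted p 0.846), so mean and log scale differ in sign. The log2 fold change was 0.29 without maternal BSp replicate 1 and -1.57 without replicate 2, and it was -0.02 without control replicate 1 and -1.06 without control replicate 2.

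The cytoplasmic actins bear on the share that Acta2 takes. Actb, the main actin of non-muscle cells, measured 4278, 3479 and 3725 in maternal BSp and 8227 and 7044 in the controls (log2 fold change -0.997, SE 0.43, limma adjusted p 0.444). Per length, Acta2 made up 0.570%, 0.256% and 0.490% of the transcripts of Acta2, Actg2, Actb and Actg1 in maternal BSp and 0.524% and 0.404% in the controls. On this scale the groups overlapped, with maternal BSp replicate 1 highest of the 5 libraries, although its Acta2 level was lower than in either control. The share of Actg2 in the same 4 genes was 0.127%, 1.49% and 0.326% in maternal BSp and 0.478% and 0.255% in the controls.

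Tpm2, beta tropomyosin (chromosome 4, 43514711 to 43523765, minus strand), had the most negative log2 fold change of the 7 tested. It measured 609, 317 and 78.5 in maternal BSp and 807 and 574 in the controls. Maternal BSp replicate 1 lay between the controls, and replicate 3 was 10.3-fold lower than control replicate 1. The log2 fold change was -1.45 (SE 0.76, 95% interval -3.20 to 0.29), with an unadjusted p of 0.0915 and an adjusted p of 0.487 in limma. It was -0.63 without maternal BSp replicate 3, which was the lowest, and -2.10 without replicate 1.

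The other tropomyosin genes had log2 fold changes nearer 0 or above it. Tpm1 measured 444, 392 and 336 in maternal BSp and 290 and 350 in the controls, and Tpm4, a tropomyosin of non-muscle cells, 727, 1168 and 419 in maternal BSp and 420 and 412 in the controls. Tpm3 measured 293, 649 and 270.4 in maternal BSp and 462 and 373 in the controls, with a log2 fold change of -0.16. Per length, Tpm2 made up 31.9%, 13.5% and 8.61% of the transcripts of Tpm1 to Tpm4 in maternal BSp and 47.1% and 39.5% in the controls, so the share was lower in each maternal BSp library than in either control. The exact 95% intervals, which cover counting error of Tpm2 only, were 31.2% to 32.7% in maternal BSp replicate 1 and 38.2% to 40.8% in control replicate 2, the nearest pair.

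Cnn1, calponin 1, which holds back the myosin ATPase (chromosome 9, 22099216 to 22109630, plus strand), measured 4.97, 2.98 and 1.44 in maternal BSp and 12.0 and 10.5 in the controls. Every maternal BSp library was lower than either control, with means of 3.13 ± 1.77 and 11.2 ± 1.08 (SD). Its mean over the libraries, 6.37, was under the filter of 10. The 9.21% given for Acta2 covers only genes that passed this filter, so no share of all genes stands beside Cnn1. With no filter the log2 fold change was -1.66 (SE 0.64), with an unadjusted p of 0.0456 and an adjusted p of 0.471 in limma. The control values rest on 12 and 37 reads, and the interval of control replicate 1, 6.20 to 20.96, overlaps that of maternal BSp replicate 1, 3.52 to 6.82. Against Cnn2 and Cnn3, the calponins of other cells, Cnn1 made up 1.06%, 0.451% and 0.339% of transcripts per length in maternal BSp and 2.30% and 2.56% in the controls. The shares did not overlap, but their exact 95% intervals did, reaching up to 1.45% in maternal BSp replicate 1 and down to 1.196% in control replicate 1.

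The authors' deposited table of 2447 genes, which is named as one of significant genes, lists Acta2 and Cnn1 and no other member. Its p-values are therefore not separate support for the genes in it. For Acta2 the authors' deposited table gives a mean of 22.2 for BSp and 42.9 for control with the authors' p at 0.0152, and for Cnn1 3.13 and 11.2 with 0.0384. These p-values correspond to 5 residual degrees of freedom, more than the 3 that 5 libraries in 2 groups leave, while the means equal those of the 3 and 2 libraries here. The origin of that difference was not tested.

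Tagln, transgelin or SM22 alpha, an early marker of smooth muscle (chromosome 9, 45929619 to 45936058, minus strand), measured 88.1, 46.0 and 28.2 in maternal BSp and 211 and 62.3 in the controls. Control replicate 1 stood apart from all others, and control replicate 2 lay between maternal BSp replicates 1 and 2. The log2 fold change was -1.22 (SE 0.62, 95% interval -2.65 to 0.21, limma adjusted p 0.480), and it was -1.64 without maternal BSp replicate 1, -0.35 without control replicate 1 and -2.09 without control replicate 2. Tagln overlaps Pcsk7 on the opposite strand. The library kit keeps strand, per the labels, but no source used here says whether counting used it. Its share with Tagln2, the transgelin of non-muscle cells, was 10.2%, 3.70% and 4.40% per length in maternal BSp and 13.8% and 4.19% in the controls, highest in the libraries with salivary gland transcripts.

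Csrp1, a LIM domain protein that binds actin-associated proteins (chromosome 1, 135720061 to 135752232, plus strand), measured 91.7, 641 and 198 in maternal BSp and 244 and 238 in the controls. The controls were nearly equal, and the maternal BSp libraries lay on both sides of them. The log2 fold change was -0.09 (SE 0.71, interval -1.72 to 1.55, limma adjusted p 0.971), and it was 0.56 without maternal BSp replicate 1 and -0.83 without replicate 2. Its relative Csrp2 measured 76.7, 83.1 and 54.8 in maternal BSp and 172 and 162 in the controls, a log2 fold change of -1.23 (SE 0.34, limma adjusted p 0.407). DESeq2, which called 0.881% of all genes, called Csrp2 lower in maternal BSp (adjusted p 0.0101). Limma with array weights, which called 7.08%, did so too (adjusted p 0.0367). Per length, Csrp1 made up 57.0%, 89.5% and 80.0% of Csrp1 and Csrp2 transcripts in maternal BSp and 61.2% and 61.9% in the controls.

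**Figure D2:**
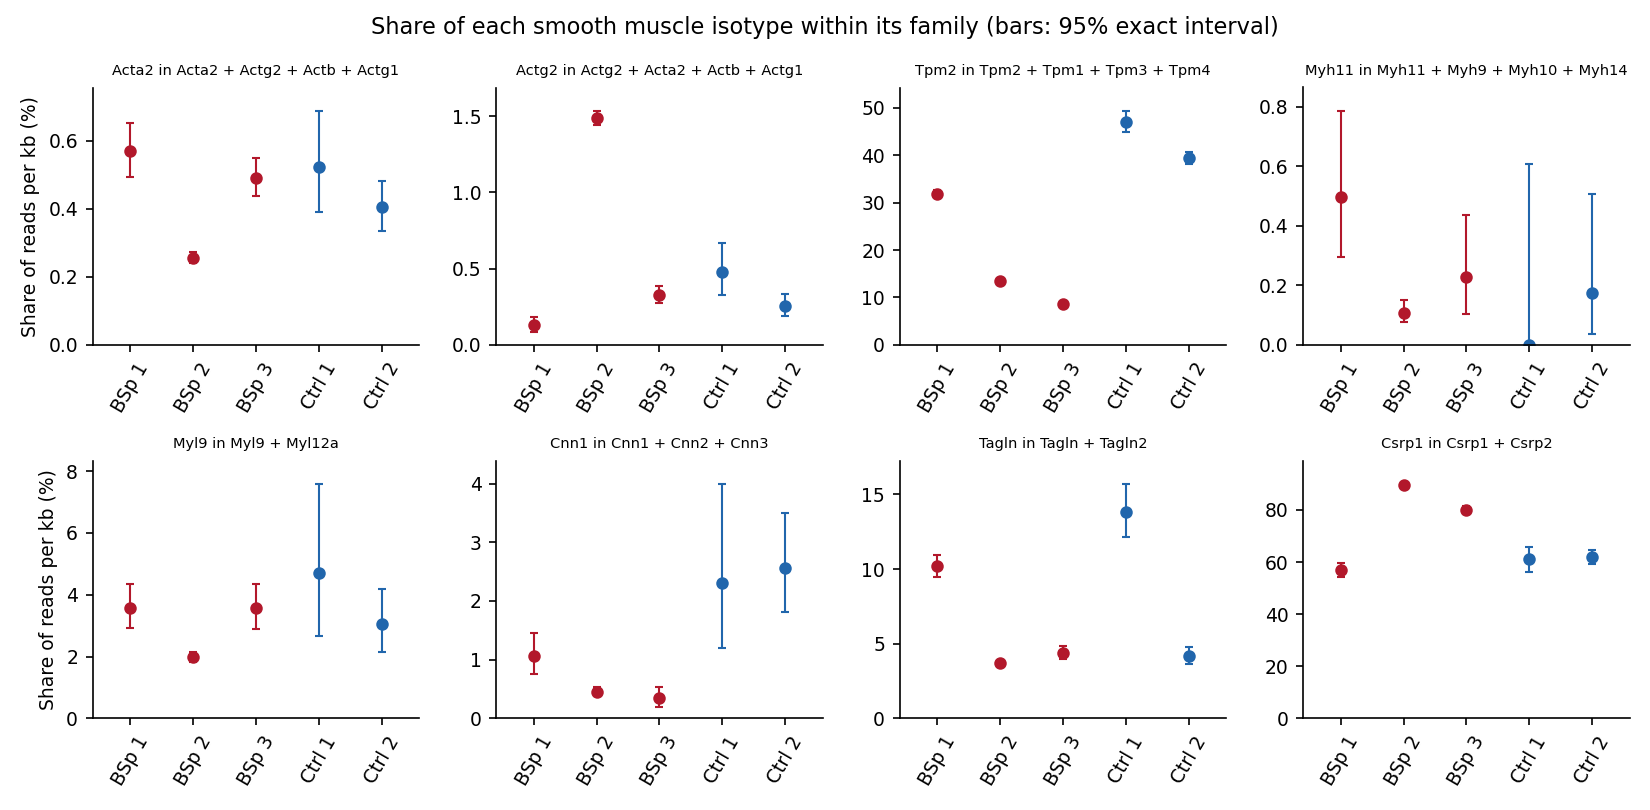
Share of 8 members among the related genes in each panel title, as a percentage of reads per kilobase. The 3 maternal BSp libraries are red and the 2 control libraries blue. Bars show the exact 95% interval of the member's counting error, and axes start at 0. Myl9 is set against Myl12a alone, so Myl12b is left out of its share. Tpm2 and Cnn1 have shares that are lower in all 3 maternal BSp libraries than in both controls, while the other 6 shares overlap.

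In all, 8 such shares were computed, a measure chosen after the values were seen, and 2 of them, those of Tpm2 and Cnn1, did not overlap between the groups. Both were lower in maternal BSp. Among the levels of all genes tested, 33.0% did not overlap in either direction, and 9.21% did not overlap and were lower in maternal BSp. Levels are a different measure from shares, and no background of shares was computed, so 2 of 8 cannot be placed against one. The shares do not depend on how the libraries were scaled. With 3 libraries against 2, an exact two-sided permutation test cannot go below 0.1, and none was run on the shares.

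As a list, the 7 tested members each had a log2 fold change below 0, which held for 36.8% of all genes tested. The list was chosen with earlier results of these data known, so this is a description, and no test of it was run. Their median was -0.54, beside 0.21 for all genes tested. In limma 1 of the 7 had an unadjusted p under 0.05, against 11.2% of all genes in either direction and 3.14% in this one. Neither edgeR (0% of genes called), DESeq2 (0.881%) nor limma with array weights (7.08%) called a member. The median leaned on single libraries: it was -0.83 and -0.34 when maternal BSp replicates 2 and 3 were left out in turn, and -0.080 and -1.06 when control replicates 1 and 2 were. Median-of-ratios scaling brought the median of all genes to 0.00 and that of the members to -0.75, still with 7 of 7 below 0. Control replicate 1 exceeded control replicate 2 in all 7 tested members, and in 45.9% of all genes tested. Without both libraries that carried salivary gland transcripts, a setting chosen after the data were seen, the median was -0.25, with 4 members below 0 and 3 above.

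**Figure D3:**
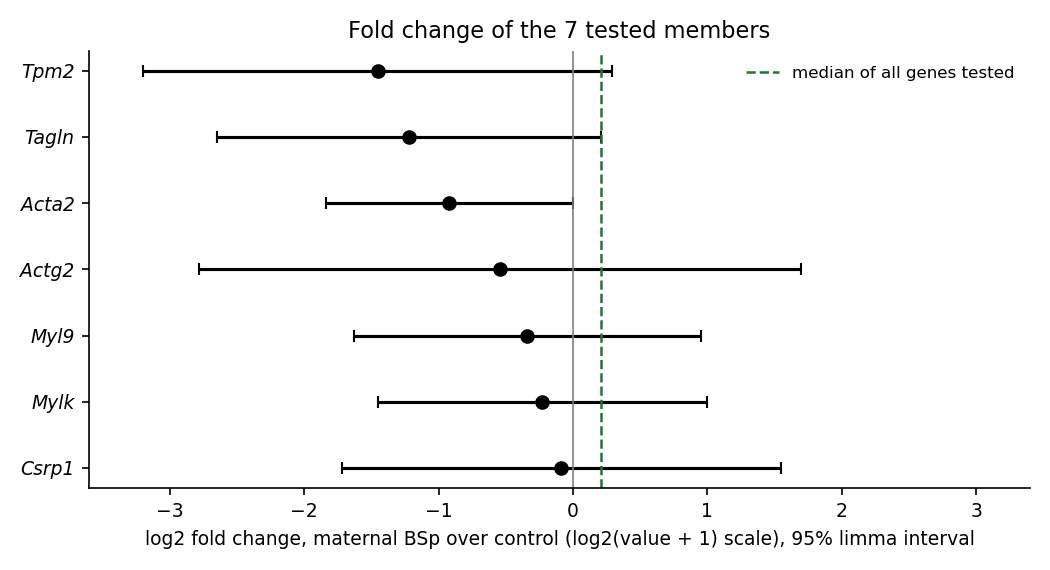
Log2 fold change (maternal BSp over control) of the 7 tested members as points with 95% limma intervals (bars), beside 0 (grey line) and the median of all genes tested, 0.21 (dashed green line). All 7 points lie below 0, and every interval but that of Acta2 reaches past 0.

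The pattern over the libraries differed among the members. On values centred per gene on the log2 scale, the root mean square difference between Mylk and Myl9 was 0.37 and that between Acta2 and Myl9 0.40. Actg2 and Csrp1, both highest in maternal BSp replicate 2, differed by 0.50, and Tpm2 and Actg2 by 1.69, the widest of the 21 pairs. Of the 10 members, 6 were highest in control replicate 1, 2 in maternal BSp replicate 1 (Myh11 and Oxtr) and 2 in maternal BSp replicate 2. Of the 8 members above 0 in each library, 5 were lowest in maternal BSp replicate 3. The genes nearest to the members' median pattern were Mbnl3, Gm7809, Tanc2, Mbnl1 and Haus7, at 0.097 to 0.16, over 5 libraries. Such nearness was common: 1328 of 9863 other genes (13.5%) lay within 0.5 of it.

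The rest of the contractile pathway was described by lists. Of 18 other genes of the contractile apparatus 12 were tested and 0 passed in limma, with 3 higher, 9 lower and a median log2 fold change of -0.35. Tagln2 measured 814, 1256 and 643 in maternal BSp and 1376 and 1491 in the controls, each maternal BSp library lower (log2 fold change -0.72, limma adjusted p 0.523). That held for 1 of the 12 tested, beside 9.21% of all genes. The essential light chain Myl6 had -0.67, vinculin, which anchors actin at adhesions (Vcl), -0.68, and filamin A, which crosslinks actin (Flna), -0.52, all with groups that overlapped. Smooth muscle leiomodin, Lmod1, which nucleates actin filaments, measured 0.131, 6.66 and 3.05 in maternal BSp and 1.00 and 3.68 in the controls.

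Among 8 genes of smooth muscle transcription 5 were tested and 0 passed in limma, with 1 higher and 4 lower and a median of -0.76. Srf, the factor that binds the CArG box, measured 40.2, 75.7 and 34.1 in maternal BSp and 97.0 and 77.0 in the controls (log2 fold change -0.86, SE 0.42, limma adjusted p 0.467). The cofactor Fhl2 measured 49.9, 36.5 and 43.0 in maternal BSp and 62.0 and 85.8 in the controls (log2 fold change -0.76). Srf, Fhl2 and Csrp2 were thus lower in each maternal BSp library than in either control, 3 of 5 tested, beside 9.21% of all genes. The myocardin-related factors lay on opposite sides of 0, at 0.51 for Mkl2 and -0.55 for Mkl1, each with groups that overlapped.

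In the list of calcium and RhoA signalling 14 of 17 genes were tested and 0 passed in limma, with 9 higher and 5 lower and a median of 0.16. The kinase Rock1, which raises light chain phosphorylation by acting on myosin phosphatase, measured 181, 130 and 125 in maternal BSp and 84.0 and 77.6 in the controls (log2 fold change 0.82, SE 0.34, limma adjusted p 0.439). The RhoA exchange factor Arhgef1 had 0.73 and the kinase Prkca 0.58, each with all maternal BSp libraries higher, which held for 4 of the 14 and for 23.8% of all genes. The GTPase gene Rhoa had -0.12, and Calm2, which encodes calmodulin, had -0.17. Of the 9 non-muscle counterparts all were tested and 0 passed in limma, with 4 higher and 5 lower. Actg1 had -0.59, Myh14 -1.04, Myl12a 0.01 and Tpm4 0.77. Limma with array weights called Rock1 higher (adjusted p 0.0440) and Myh14 lower (adjusted p 0.0377) in maternal BSp, beside 7.08% of all genes called. DESeq2 called neither.

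Markers of cells that can carry contractile genes were summed for each library. Basal epithelial markers (Krt5, Krt14, Krt17, Trp63, Itgb4, Cdh3, Mme and Lgals7) summed to 684 to 2211 in maternal BSp and 2461 to 3863 in the controls. Of their 8 log2 fold changes 7 were below 0, and 0 passed in limma. Krt5 and Krt17, 2 of the 8, were lower in each maternal BSp library than in either control, beside 9.21% of all genes tested. The other basal markers had groups that overlapped. Maternal BSp replicate 3, lowest for 5 members, had the lowest basal sum. Krt5 (2.89), Krt14, Krt17, Trp63, Itgb4 and Cdh3 were lowest there, while Mme was highest, at 50.5, and Lgals7 held the middle value, at 370. Pericyte and vascular smooth muscle markers summed to 155 to 427 in maternal BSp and 199 to 367 in the controls, and fibroblast markers to 381 to 2711 and 744 to 1720. Both were highest in maternal BSp replicate 2, where Actg2 and Csrp1 were highest. Postn made up 1695 of the fibroblast sum there, and Col1a2 (467) and Col3a1 (261) were highest in control replicate 1. Among the pericyte and vascular markers, Pdgfrb, Notch3 and Mcam were highest in maternal BSp replicate 2, while Rgs5 was lowest there, at 7.22. Of the others, Cspg4 and Ndufa4l2 were highest in control replicate 1, Kcnj8 and Abcc9 in maternal BSp replicate 3, and Higd1b in control replicate 2. The basal markers Trp63, Itgb4 and Cdh3 were also highest in maternal BSp replicate 2, and the other basal markers peaked in other libraries. The part of these cells in the members' values was not tested.

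Endothelial markers summed to 47.4 to 68.3 in maternal BSp and 44.7 to 76.0 in the controls, and luminal markers to 5042 to 5709 and 4925 to 6122. Skeletal muscle markers were low, at 4.57 to 56.8 in maternal BSp and 30 to 31.4 in the controls, with the skeletal actin Acta1 at most 5. Cardiac markers summed to 31.2 to 42.6 in maternal BSp and 49.8 to 64.0 in the controls, most of it Tnnt2, while the cardiac actin Actc1 was 0.131 in maternal BSp replicate 1 and 0 elsewhere. Adipocyte markers summed to 27.8 to 28.9 in maternal BSp and 5.38 to 39.0 in the controls. Salivary gland markers summed to 9.14 to 2031 in maternal BSp and 52.9 to 647 in the controls, where the 491 of maternal BSp replicate 3 was almost all Aqp5, a water channel.

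**Figure D4:**
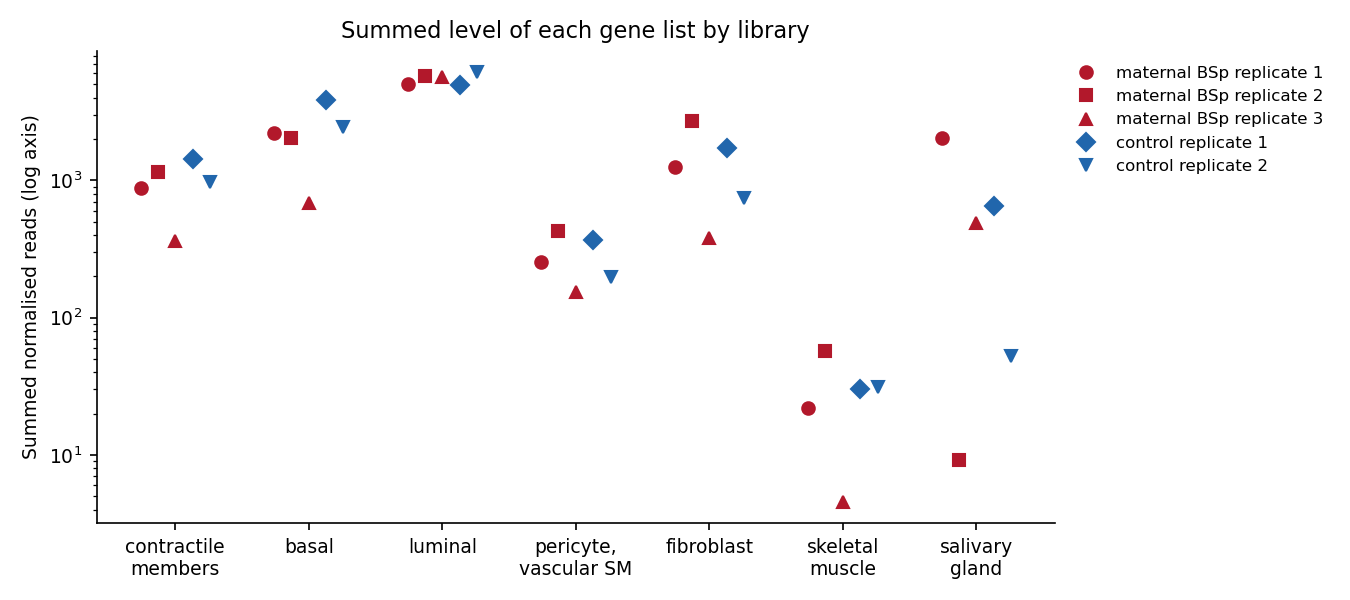
Summed normalised reads (log axis) of the 10 contractile genes and of 6 marker lists, 1 point per library, in maternal BSp (red) and control (blue). Basal markers sum to 684 to 2211 in maternal BSp, lower than the 2461 to 3863 of the controls. Taken singly, only Krt5 and Krt17 of that list are lower in each maternal BSp library than in either control. The contractile genes sum to 364 to 1141 in maternal BSp and 970 to 1418 in the controls, with overlap.

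Sequence shared with near-identical genes made up few windows of the members. Of the 50-base windows of the longest coding transcript, 0.352% in Acta2 were also found in Actg1 or in actin pseudogenes and 0.400% in Myh11 in Myh9 or Myh10, and in the other 8 members 0% were found in any other gene. These shares take no account of level. Per kilobase, Myh9 averaged 39.9 against 0.120 for Myh11, and Actg1 1091 against 13.9 for Acta2. What reads from such genes add to the values of Myh11 and Acta2 was not tested, and no source used here gives the read length. Mylk, like Tagln, is overlapped by genes on the opposite strand.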

How the data were processed

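The deposited normalised table gives, per the file headers, 1 column of normalised signal per library. The submitters' processing notes name FastQC, Trim Galore, cutadapt, STAR and DESeq with GRCm38 and mm10. The counting program, its annotation and its strand option were not given in the sources used here. Within the deposited signal every value above 0 was a whole multiple of the value of 1 read within 0.1 read (100% of values), so reads were recovered. The authors' second table gives group means and p-values, per the file headers. The header of the p-values does not say whether they were adjusted.

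Genes with a mean of at least 10 (9870) were compared on log2(value + 1) by limma 3.58.1 with a mean trend and without covariates (R 4.3.3), which understates changes of low genes, with Benjamini-Hochberg adjustment over all of them and a threshold of 0.05. Alternatives on recovered reads used DESeq2 1.42.0 and the quasi-likelihood test of edgeR 4.0.16. The test scripts were tested on simulated data. Intervals on reads are exact Poisson or Clopper-Pearson at 95% and cover counting error only. Exon lengths and positions come from GENCODE M21.

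The members and gene lists were chosen with earlier results of these data known. All 10 members are named. Of each pathway list the 3 genes with the highest mean and the 3 with the smallest p are named, apart from 1 gene that is not reported here, and Tpm1, Tpm3, Mkl1, Lmod1, Myocd and the marker genes named singly were chosen after their values were seen.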

Additional observations from a re-analysis of the deposited data

How the results depend on the processing

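The count of genes called by limma was 0, with 1101 at an unadjusted p under 0.05. It was also 0 with edgeR (971 at an unadjusted p under 0.05), 87 with DESeq2, 699 with array weights, 1 with the length trend removed and 23 with a replicate block on the description numbers, and 0 to 1 when each library was left out. A replicate block on the title numbers gave 0. The labels do not say that shared numbers mark shared animals. Deviations of same-numbered libraries from their group means correlated at 0.094 and -0.092 (description) and 0.092 and 0.16 (title). With 2 controls, the deviations of 1 are the exact opposite of the other's. These values are therefore not independent and cannot show whether libraries pair. No member was among any of these calls. The scalings moved the median of all genes from 0.21 to 0.00 (median-of-ratios), 0.03 (TMM) and 0.08 (upper quartile), and all 7 tested members stayed below 0 under each. The members' median log2 fold change was -1.22 over the 3 members with a mean of at least 50, a smaller set, and lay between -1.06 and -0.080 when each library was left out. With the replicate block on the description numbers it was -0.34, and on the title numbers -0.50. The first block gives the same fold changes as leaving out maternal BSp replicate 3, and the second the same as leaving out replicate 1. The blocks are thus repeats and not separate estimates, also where alternatives are counted or listed below. Acta2, Tagln and Tpm2 stayed below 0 in all of their 19, 20 and 20 alternatives, with adjusted p of 0.157 to 1, 0.33 to 1 and 0.382 to 1. The others turned above 0 in some. Csrp1 was 0.027 with DESeq2, 0.067 with edgeR, 0.24 with the length trend removed, 0.013 and 0.56 with the block on description and title numbers, and 0.58 without both libraries with salivary gland transcripts, and lay between -0.83 and 0.56 with each library left out. Mylk was 0.025 with array weights, 0.00050 without both of those libraries and 0.23 with the block on description numbers, and lay between -0.66 and 0.23 with each library left out. Actg2 was 0.81 without both of those libraries and 0.29 with the block on title numbers, and lay between -1.57 and 0.29 with each library left out. Myl9 was 0.28 with the length trend removed. The cause was not tested. Depth limits Oxtr, Myh11, Cnn1 and Myl9, with 0 to 37 reads in each control.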
